A study of Homo sapiens with 6 samples.

Results

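The RNA of WM3248, an established human line of primary melanoma cells in vertical growth phase, was read for 9 genes. The set joins melanosome transport RABs and their partners with synaptotagmin-like genes. It holds the small GTPase genes RAB27A, RAB38 and RAB32, the motor gene MYO5A and the linker genes MLPH and MREG. The synaptotagmin-like genes are SYTL2, SYTL4 and SYTL5. Only RNA was read, so the transport and docking of melanosomes were not tested. The genes of the set are 9 of the 57688 rows of the expression table, taken by symbol. They were chosen by symbol with their FPKM values in the siPGC1a and siNC libraries already known. Their differences between the groups are therefore a description, and the adjusted p-values beside them, which come from a fit over all tested genes, are not independent evidence. The cells had been transfected for 48 h with an siRNA at 30 nM, either a commercial negative control (siNC, 3 libraries) or one against PPARGC1A, the gene of the coactivator PGC1-alpha (siPGC1a, 3 libraries). All 6 samples received the same lipid reagent and growth medium, the labels list 1 siRNA product per arm, and the sources used here do not give which libraries stem from separate cultures. A p-value here thus reflects the spread of these libraries, which may be technical.

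Melanosomes are the lysosome-related organelles in which melanocytes make pigment. RAB38 and RAB32 are close relatives that steer pigment enzymes to the maturing organelle. RAB27A then sits on the mature melanosome and binds melanophilin (MLPH), which binds the actin motor myosin Va (MYO5A), and this chain holds melanosomes at the cell edge. The synaptotagmin-like proteins are other RAB27 effectors, each with a RAB-binding head and C2 domains that meet the plasma membrane.

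The steps of the values gave a read total of 25150000 to 26430000 for the 6 libraries, the total by which FPKM was scaled. It was searched for within a set range and can differ from the number of reads sequenced. PPARGC1A stood at 0.932, 1.042 and 0.947 FPKM in siNC and at 0.4, 0.354 and 0.413 FPKM in siPGC1a, so 60.0% of its mean was lost (limma adjusted p = 0.000234). Its groups do not overlap (exact permutation p = 0.1, the lowest value possible with 3 libraries a group). Over all tested genes 48.1% had a limma adjusted p under 0.05, with 25.6% higher and 22.5% lower in siPGC1a, beside the marker counts that follow. Of 10 melanocytic markers 8 passed the filter on low values (a mean of at least 1 FPKM over the libraries), with 1 higher, 4 lower and 3 not past the limma threshold. The summed level of the 10 markers was 1442.4 to 1482.6 FPKM in siNC and 1417.2 to 1425.9 FPKM in siPGC1a. MITF, the transcription factor of the melanocyte lineage, fell from 7.24 ± 0.133 to 5.52 ± 0.261 FPKM (SD, n = 3, limma adjusted p = 0.000335). SOX10, S100B and DCT were high in both groups, at 246.3, 801.9 and 393.9 FPKM in siNC and 230.0, 923.9 and 253.3 FPKM in siPGC1a, with S100B higher (limma adjusted p = 0.000841), DCT lower (5.89e-06) and SOX10 not past the threshold (0.111). PMEL, MLANA and TYR are the genes of a melanosome matrix protein, a melanosome protein and the first pigment enzyme. They stood at 5.29, 1.86 and 1.44 FPKM in siNC and 3.77, 1.02 and 1.13 FPKM in siPGC1a. PAX3, TYRP1 and GPR143 were at 1.99, 1.08 and 0.272 FPKM in siNC and 1.92, 0.907 and 0.225 FPKM in siPGC1a. The markers of this list thus differed widely in level in both groups. Of 6 fibroblast markers 4 passed the filter, 0 were higher, 3 were lower and 1 was not past the threshold. Sums over the 6 were 44.3 to 44.7 FPKM in siNC and 37.0 to 39.3 FPKM in siPGC1a. LUM, FAP and COL3A1 fell from 8.51, 5.19 and 1.82 FPKM to 6.38, 4.24 and 1.14 FPKM. THY1, not past the threshold, stood at 28.5 and 26.4 FPKM, while DCN and PDGFRA were below 1 FPKM in both groups. Of 6 keratinocyte markers 1 passed the filter, KRT10, which was not past the threshold at 20.6 and 22.4 FPKM. The list summed to 20.5 to 21.5 FPKM in siNC and 20.9 to 26.0 FPKM in siPGC1a, with KRT15 at 0.136 and 0.234 FPKM and KRT1 listed at 0 in every library. Of the 5 endothelial markers 4 had values, and PECAM1 was not found under that symbol. None of those 4 (sums of 1.1 to 1.2 and 0.8 to 0.9 FPKM) passed the filter. Of the 6 immune markers (1.7 to 2.1 and 2.0 to 2.7 FPKM) none passed either. Among them CD68 was at 0.743 and 1.07 FPKM, CD14 at 0.993 and 0.958 FPKM and PTPRC listed at 0 in every library. The part of these markers in the results below was not tested.

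Of the 9 genes, 8 passed the filter and SYTL4 did not. In the fit over all 12020 tested genes, 4 of the 8 were higher in siPGC1a, 0 were lower and 4 were not past the threshold of 0.05. In the same fit 48.1% of all tested genes were past the threshold, 25.6% higher and 22.5% lower. Since the genes were picked with this comparison in view, nothing is read from their count. The values of the groups do not overlap for the same 4 genes, each higher in siPGC1a, and overlap for the other 5. Such separation was found for 57.2% of all tested genes, and with siPGC1a on the higher side for 29.8%. The 4 that rose were SYTL5, RAB32, MYO5A and RAB38, and MLPH, MREG, RAB27A and SYTL2 did not pass. The median difference of the 8 was 0.16 on the log2(FPKM + 1) scale, beside 0.01 over all tested genes.

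**Figure D1:**
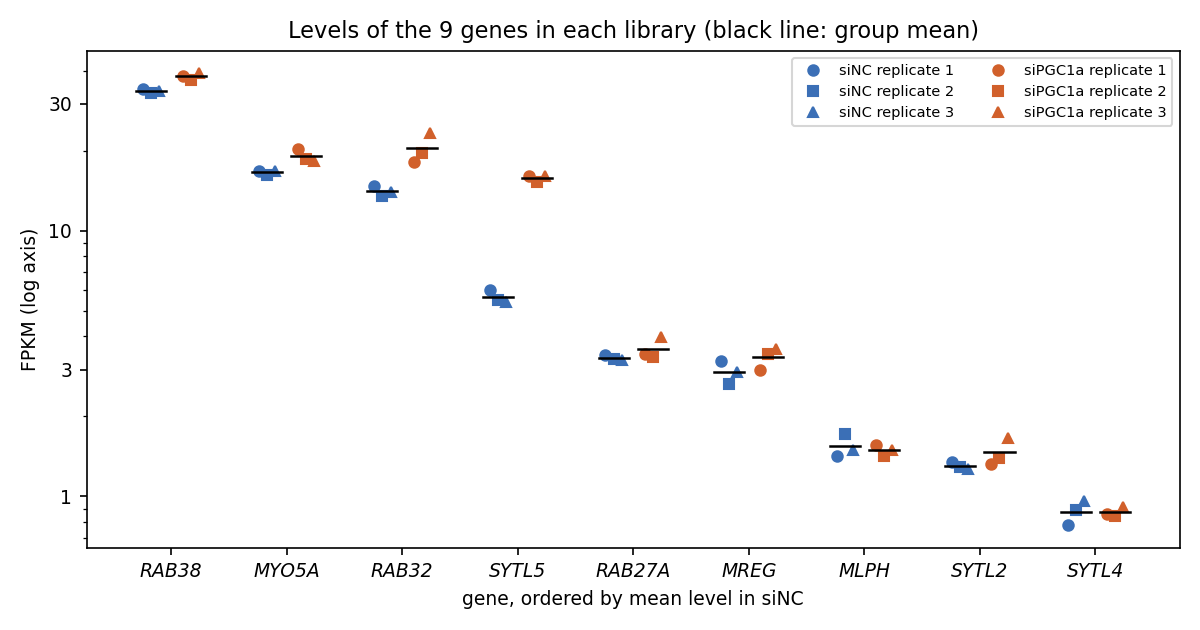
FPKM of the 9 genes in each library on a log axis, with siNC in blue, siPGC1a in orange, a marker shape per replicate number and a black line at each group mean (n = 3). The groups stand apart for RAB38, MYO5A, RAB32 and SYTL5 and overlap for the other 5.

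FPKM is a level per length of gene model, so levels can be set side by side between genes as far as that length matches the transcripts present. Whether it does was not tested, and the order and ratios of genes given here depend on it. In siNC the order was RAB38 (33.5 FPKM), MYO5A (16.6), RAB32 (14.1), SYTL5 (5.62), RAB27A (3.32), MREG (2.94), MLPH (1.54), SYTL2 (1.3) and SYTL4 (0.876), and the lowest siNC library of each gene lay above the highest siNC library of the next. The closest neighbours were RAB27A, lowest at 3.27 FPKM, and MREG, highest at 3.243 FPKM. In siPGC1a RAB32 moved ahead of MYO5A in mean level, at 20.4 and 19.1 FPKM, but their libraries overlapped, as did those of RAB27A with MREG and of MLPH with SYTL2. RAB38 alone made up 42.0% of the summed level of the 9 genes in siNC and 36.6% in siPGC1a. SYTL5 went from 7.04% to 15.2% of that sum.

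The largest change of the set was that of SYTL5, whose product (Slp5) binds RAB27A through its head domain. SYTL5 read 5.979, 5.496 and 5.394 FPKM in siNC and 16.104, 15.228 and 15.998 FPKM in siPGC1a. The lowest siPGC1a library was well above the highest siNC library, and the libraries of each group lay close together. The mean rose 2.81-fold, from 5.62 ± 0.312 to 15.8 ± 0.478 FPKM (SD, n = 3), a difference of 1.34 on the log2(FPKM + 1) scale (SE 0.0488, limma adjusted p = 2.45e-07). This was rank 10 from the top among the 12020 differences. About 653 to 757 reads lay behind each siNC value and 1835 to 1995 behind each siPGC1a value.

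Of the other synaptotagmin-like genes of the set, SYTL2 was not past the threshold and SYTL4 was under the filter. SYTL2, whose product (Slp2-a) tethers melanosomes to the plasma membrane in melanocytes, read 1.344, 1.295 and 1.269 FPKM in siNC and 1.328, 1.401 and 1.665 FPKM in siPGC1a. Its groups overlap, and the highest value is that of siPGC1a replicate 3. The difference was 0.10 on the log2(FPKM + 1) scale (SE 0.0675, limma adjusted p = 0.267), and 0.04 without that library (limma adjusted p = 0.671, where the 13 other settings that tested it spanned 0.0764 to 0.671). SYTL4, the gene of granuphilin, a docking factor of secretory granules, read 0.779, 0.889 and 0.959 FPKM in siNC and 0.859, 0.845 and 0.91 FPKM in siPGC1a, on 153 to 180 reads. Every siPGC1a value of SYTL4 falls within the siNC range (means 0.876 ± 0.0907 and 0.871 ± 0.0342 FPKM, SD, n = 3). Of its annotated exon bases, 17.5% are shared with SRPX2 on the opposite strand, and SRPX2 went from 6.65 to 5.22 FPKM. The strand setting of the counting is not given in the sources used here, so SYTL4 reads in that stretch cannot be told apart from SRPX2 reads. Within a library the level of SYTL5 was 4.24 to 4.45 times that of SYTL2 in siNC and 9.61 to 12.1 times in siPGC1a. The remaining 7 RAB27 effectors that were listed, among them SYTL1 (0.568 and 0.52 FPKM) and SYTL3 (0.361 and 0.334 FPKM), were all under the filter, with a summed level of 2.2 FPKM in every siNC library and 1.5 to 2.2 FPKM in siPGC1a.

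Both RAB32 and RAB38, the RABs of enzyme delivery, were higher in siPGC1a. RAB32 read 14.737, 13.502 and 14.009 FPKM in siNC and 18.074, 19.691 and 23.401 FPKM in siPGC1a. The groups do not overlap, and the siPGC1a libraries spread more widely than the siNC libraries, with replicate 3 highest. The mean went from 14.1 ± 0.621 to 20.4 ± 2.73 FPKM (SD, n = 3), a 1.45-fold rise (log2 difference 0.50, SE 0.0799, limma adjusted p = 0.000796). RAB38 read 34.017, 32.963 and 33.632 FPKM in siNC and 38.168, 36.999 and 39.098 FPKM in siPGC1a. Its groups do not overlap either, and both are tight. The mean went from 33.5 ± 0.533 to 38.1 ± 1.05 FPKM (SD, n = 3), a 1.14-fold rise (log2 difference 0.18, SE 0.0384, limma adjusted p = 0.00403). Set against each other within a library, the RAB32 level was 0.433, 0.41 and 0.417 of the RAB38 level in siNC and 0.474, 0.532 and 0.599 in siPGC1a, so RAB38 was the more abundant transcript in all 6 libraries, and the share of RAB32 was higher in each siPGC1a library than in any siNC library.

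In the chain of RAB27A, melanophilin and myosin Va, the motor gene rose and the genes of the RAB and the linker were not past the threshold. MYO5A read 16.84, 16.204 and 16.74 FPKM in siNC and 20.336, 18.617 and 18.34 FPKM in siPGC1a. All siPGC1a values lie above all siNC values, with siPGC1a replicate 1 highest. The mean went from 16.6 ± 0.342 to 19.1 ± 1.08 FPKM (SD, n = 3), a 1.15-fold rise (log2 difference 0.19, SE 0.0476, limma adjusted p = 0.00866). RAB27A read 3.409, 3.285 and 3.27 FPKM in siNC and 3.422, 3.36 and 3.989 FPKM in siPGC1a. The groups overlap, and siPGC1a replicate 3 is the only library that stands off. The RAB27A difference was 0.08 (SE 0.061, limma adjusted p = 0.278), and 0.02 without that library (limma adjusted p = 0.753, where the 13 other settings spanned 0.132 to 0.753). MLPH read 1.414, 1.724 and 1.496 FPKM in siNC and 1.568, 1.421 and 1.498 FPKM in siPGC1a. Its siPGC1a values sit inside the siNC range, and the difference was -0.03 (SE 0.0655, limma adjusted p = 0.759), with its sign turning to 0.02 under quantile normalization and without siNC replicate 2. Per length, MLPH RNA was the scarcest of the chain, at 0.084 to 0.106 of the MYO5A level in siNC and 0.0763 to 0.0817 in siPGC1a. MREG, the gene of melanoregulin, which takes part in moving melanosomes inward and handing them on, read 3.243, 2.642 and 2.948 FPKM in siNC and 2.99, 3.439 and 3.599 FPKM in siPGC1a. These groups overlap as well (log2 difference 0.14, SE 0.0735, limma adjusted p = 0.145). The MREG difference was 0.08 without siNC replicate 2 (limma adjusted p = 0.409) and 0.20 without siPGC1a replicate 1 (limma adjusted p = 0.0601), which are the highest and lowest p of the 13 other settings.

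In 6 of the 9 genes siPGC1a replicate 3 was the highest siPGC1a library, in 3 it was replicate 1 and in 0 replicate 2, beside 38.3%, 29.1% and 32.6% of all tested genes. SYTL5, RAB32, MYO5A and RAB38 were each past the threshold in all 14 other settings, among them the 6 that leave out 1 library. Without siPGC1a replicate 3 the RAB32 difference was 0.40 (limma adjusted p = 0.000607, between 0.000148 and 0.017 across the other settings).

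**Figure D2:**
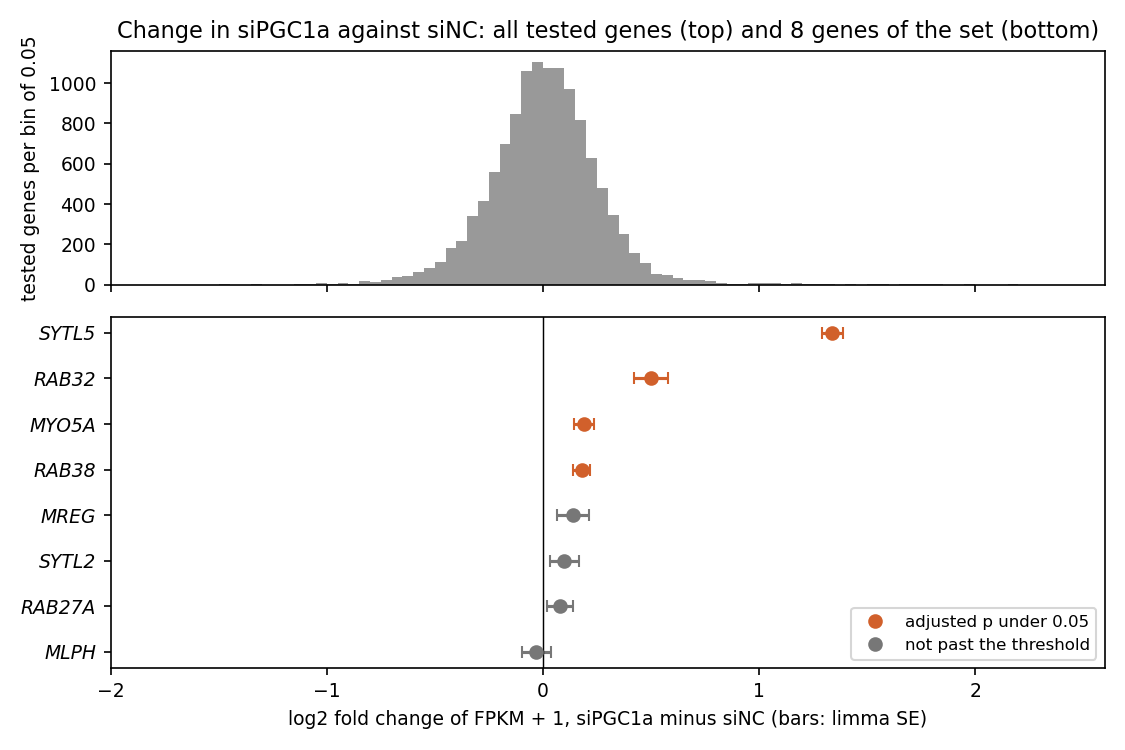
Top, the number of tested genes per bin of log2 fold change (siPGC1a minus siNC, log2(FPKM + 1) scale). Bottom, the same quantity for the 8 genes of the set that passed the filter, with bars of 1 limma SE, where SYTL5 at 1.34 and RAB32 at 0.50 lie in the upper tail and MLPH lies at -0.03.

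The start regions of the most changed genes have little in common in base composition. Promoter windows of 300 bases, from 250 before to 50 after the annotated start, were read for 7 of the 9 genes from RefSeq (GRCh38.p14), with no entry for RAB38 and SYTL2. The windows of RAB32 and SYTL5 are shown because these genes had the largest differences. SYTL5 lies on chromosome X (plus strand, chrX:38006303-38006602) and RAB32 on chromosome 6 (plus strand, chr6:146543583-146543882).
SYTL5: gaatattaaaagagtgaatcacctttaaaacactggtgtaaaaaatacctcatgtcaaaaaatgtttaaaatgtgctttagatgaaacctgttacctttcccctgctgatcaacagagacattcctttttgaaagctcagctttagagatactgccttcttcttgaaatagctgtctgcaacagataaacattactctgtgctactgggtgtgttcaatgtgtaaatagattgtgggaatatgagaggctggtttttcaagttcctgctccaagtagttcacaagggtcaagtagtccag
RAB32: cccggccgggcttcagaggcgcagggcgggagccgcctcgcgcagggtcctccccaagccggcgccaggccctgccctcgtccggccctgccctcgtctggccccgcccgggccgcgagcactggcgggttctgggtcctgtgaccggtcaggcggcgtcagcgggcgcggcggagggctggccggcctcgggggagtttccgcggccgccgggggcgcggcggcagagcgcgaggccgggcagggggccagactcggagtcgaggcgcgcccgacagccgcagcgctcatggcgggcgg
Capitals would mark the E-box words CATGTG (or its reverse complement CACATG) and CACGTG, the core letters that MITF binds, and neither window holds one. The GC content was 37.7% for SYTL5 and 81.0% for RAB32, whereas the promoters of tested genes had a median of 65.3%, 1.0% of them at or below SYTL5 and 2.9% at or above RAB32. Of the 7 windows only that of MLPH holds an E-box word, CACGTG at 35 bases before the start (chr2:237487001-237487300, plus strand), shown here with its flanks and the word in capitals.
MLPH: cggggcgcagccCACGTGgttcgggcggga
The words occur in 17.9% of all 27305 promoter windows. A match or its absence describes these letters in this window and says nothing of binding.

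The short word ACACCT, found earlier in these data to be frequent in the 3' UTRs of genes that were lower in siPGC1a, stands in the longest annotated 3' UTR of 33.8% of tested genes, in 48.9% of those lower and in 22.8% of those higher. Of the 9 genes 2 hold it, RAB27A and MREG, neither past the threshold, and the 4 that rose do not. A second such word, GTCTTC, stands in 34.6% of tested genes, in 43.3% of the lower and in 27.1% of the higher. It is held by 6 of the 9 genes, namely RAB27A, RAB32, MYO5A, MLPH, SYTL4 and SYTL5, so 3 of the 4 genes that rose carry it. The 3' UTRs with GTCTTC ran from 360 bases (RAB32) to 6413 (MYO5A), and those without from 746 (RAB38) to 1687 (MREG). A longer 3' UTR has more room for a word, and neither the shares nor these counts were matched for length. The sites in SYTL5 and RAB32, the genes with the largest differences, are shown with the word in capitals.
SYTL5: gaaaaataaaatGTCTTCagacttgatgtg
RAB32: tgttagctgggaGTCTTCccacatgtggca

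Neighbours on the chromosome were picked for naming after their values were seen, and only part of them are given here. Some of the nearest tested protein-coding genes were past the threshold and others were not, where 48.1% of all tested genes were past it. The genes next to SYTL5 on chromosome X moved in opposite directions. DYNLT3, a dynein light chain gene and the nearest tested protein-coding gene on one side at 158.9 kb, read 16.158, 14.014 and 14.028 FPKM in siNC and 30.196, 27.611 and 32.936 FPKM in siPGC1a (limma adjusted p = 8.62e-06). On the other side at 20.5 kb, SRPX, a gene of a secreted sushi-repeat protein, read 149.624, 149.594 and 150.847 FPKM in siNC and 73.602, 79.715 and 76.917 FPKM in siPGC1a (limma adjusted p = 3.86e-07). DYNLT3 thus rose 2.05-fold and SRPX fell to a ratio of 0.512, with SYTL5 between them at 2.81-fold. MYO5A lies 11.5 kb from MYO5C, another class V myosin gene, on chromosome 15. MYO5C read 2.578, 2.294 and 2.362 FPKM in siNC and 1.627, 1.466 and 1.574 FPKM in siPGC1a and fell to a ratio of 0.645 (limma adjusted p = 0.000379), while MYO5A rose. MLPH, 19.0 kb from RAB17, did not pass the threshold while RAB17, another RAB gene, went from 1.23 to 1.68 FPKM (limma adjusted p = 0.0117). RAB27A shares 2.7% of its exon bases with PIGB on the opposite strand and 3.3% with PIGBOS1 on its own strand, and MREG shares 4.5% with PECR.

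**Figure D3:**
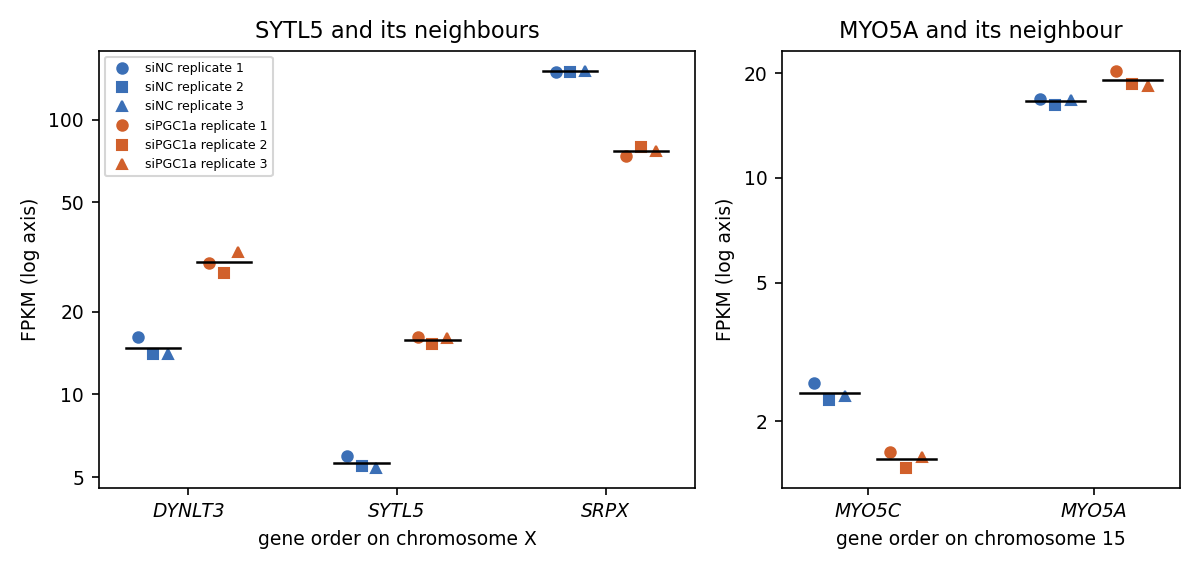
FPKM on log axes of SYTL5 with the nearest tested protein-coding gene on each side (left) and of MYO5A with MYO5C (right), for each library, with siNC in blue, siPGC1a in orange and black lines at the group means (n = 3). DYNLT3 and SYTL5 are higher and SRPX is lower in siPGC1a, and MYO5C is lower where MYO5A is higher.

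Over the 6 libraries, the tested genes whose log2(FPKM + 1) values ran most like those of SYTL5 were MAGEA3 (Pearson r = 0.9991), KDELR1 (r = 0.999) and SLC20A1 (r = 0.999). The points fall into the 2 treatment groups, and 196 genes reached r of at least 0.99, so this likeness describes genes with separate, tight groups. SLC20A1, a phosphate transporter gene, went from 24.5 ± 0.617 to 59.2 ± 0.0355 FPKM (SD, n = 3).

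Enzymes and carriers place RABs on membranes and take them off. Of 11 such genes that act on the RAB27 cycle 9 were tested, and 5 were higher, 1 lower and 3 not past the threshold, with a median difference of 0.16 beside 0.01 over all tested genes (48.1% of which were past the threshold). RABGGTA, a subunit of the enzyme that attaches the lipid anchor of RABs, rose from 10.3 ± 0.537 to 12.4 ± 0.382 FPKM (SD, n = 3, limma adjusted p = 0.00279). CHML, which escorts RABs to that enzyme, fell from 5.55 ± 0.398 to 4.76 ± 0.417 FPKM (SD, n = 3, limma adjusted p = 0.0404). The CHML call was lost without a filter and without siNC replicate 1, 2 or 3 or siPGC1a replicate 1 or 2 (limma adjusted p between 0.0518 and 0.15, and as low as 0.0272 in other settings). Without siNC replicate 3 the list had 3 higher and 0 lower, and under quantile normalization 3 higher and 1 lower. RAB27B, the paralog of RAB27A, was under the filter at 0.377 and 0.356 FPKM.

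Of 6 genes that act on the RAB32 and RAB38 cycle 5 were tested. There were 0 higher, 1 lower and 4 not past the threshold (median -0.06), where 48.1% of all tested genes were past it. HPS1, a subunit of BLOC-3, the exchange factor that activates RAB32 and RAB38, fell from 9.13 ± 0.355 to 7.79 ± 0.253 FPKM (SD, n = 3, limma adjusted p = 0.00523), while its partner HPS4 stood at 6.25 ± 0.13 and 6.48 ± 0.119 FPKM (SD, n = 3, limma adjusted p = 0.413). A list of 31 genes of cargo sorting to melanosomes held the BLOC, AP-1, AP-3 and HOPS complexes and also KIF13A, LYST, STX12 and VAMP7. Of these genes 30 were tested, and VAMP7, listed at 0 in every library, was not. There were 4 higher, 5 lower and 21 not past the threshold (median 0.00), beside 25.6% higher and 22.5% lower over all tested genes. Only 2 of the list were higher without siNC replicate 2, siNC replicate 3 or siPGC1a replicate 1, under quantile normalization and with no filter. AP1S1, of the AP-1 adaptor, rose from 52.6 to 67.1 FPKM (limma adjusted p = 0.00025) and STX12, an endosomal SNARE, 1.15-fold to 20.8 FPKM (limma adjusted p = 0.00705). KIF13A, the kinesin that works with AP-1 on recycling endosomes, fell from 17.2 to 12.8 FPKM (limma adjusted p = 5.56e-05), and VPS41, a HOPS subunit, from 15.8 to 12.9 FPKM (limma adjusted p = 0.000469).

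For the next 2 lists too, the share past the threshold over all tested genes was 48.1%, with 25.6% higher and 22.5% lower. Motor and actin genes gave 5 higher, 2 lower and 9 not past the threshold of 16 tested from 20 (median 0.07). The list had 3 higher and 2 lower without siNC replicate 2 or without siPGC1a replicate 1, 3 higher and 4 lower under quantile normalization, and 5 higher and 1 lower with the filter at 5 FPKM. KLC2, a kinesin light chain, rose 1.51-fold to 7.1 FPKM (limma adjusted p = 7.75e-05), and DYNLL2, a light chain shared by dynein and myosin Va, rose 1.3-fold to 20.5 FPKM (limma adjusted p = 0.000159). MYO5C was lower, as given above, and DYNC1I2, a dynein intermediate chain, fell to a ratio of 0.818 (limma adjusted p = 0.000548). Of 12 exocytic SNAREs, of the target membrane or the vesicle, and their binding proteins, 11 were tested, with 4 higher, 1 lower and 6 not past the threshold (median 0.05). SNAP23 rose from 9.5 to 11.9 FPKM (limma adjusted p = 0.000763) and STX2, a target-membrane SNARE, from 13.8 to 15.8 FPKM (limma adjusted p = 0.0097). VAMP3, a vesicle SNARE, fell from 10.9 to 9.02 FPKM (limma adjusted p = 0.017), a call lost without a filter and without siNC replicate 1, siPGC1a replicate 1 or siPGC1a replicate 2 (limma adjusted p between 0.052 and 0.0957, and as low as 0.00298 in other settings). The list had 2 higher and 0 lower with no filter, and 3 higher and 0 lower without siNC replicate 1.

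**Figure D4:**
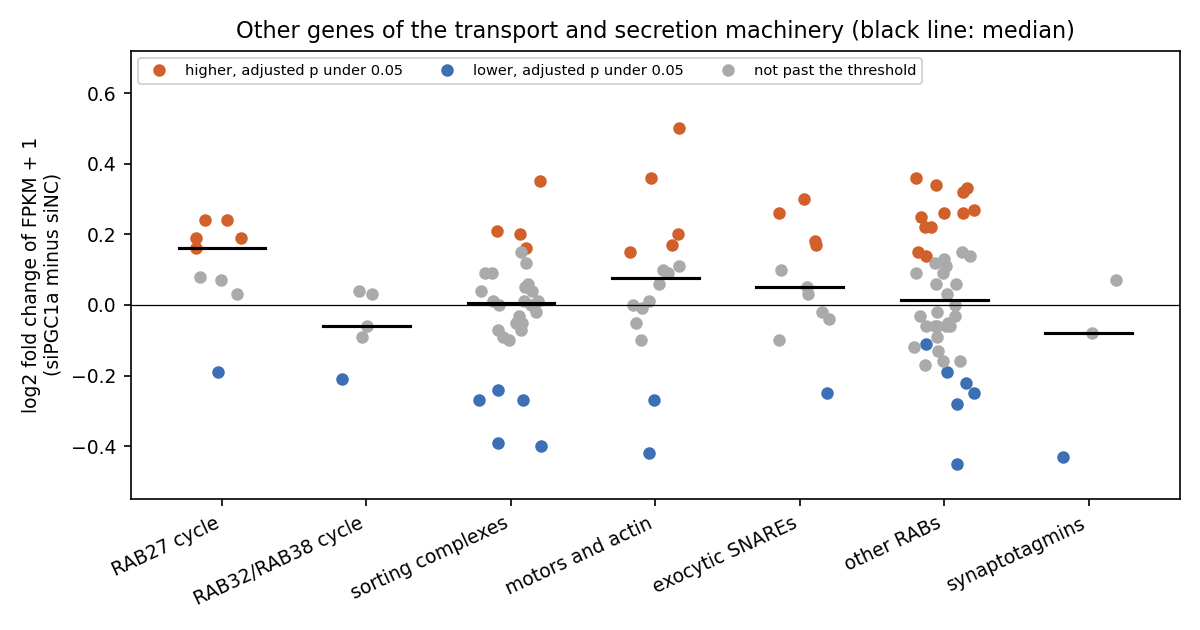
Log2 fold change (siPGC1a minus siNC, log2(FPKM + 1) scale) of each tested gene in 7 lists of the transport and secretion machinery, 1 point per gene with random sideways placement, orange for higher and blue for lower at an adjusted p under 0.05, and a black line at each median. Points lie on both sides of 0 in every list, with medians between -0.08 and 0.16.

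The RAB and synaptotagmin counts stand beside 48.1% of all tested genes past the threshold, 25.6% higher and 22.5% lower. Among the other RAB genes 44 of 60 were tested, with 12 higher, 6 lower and 26 not past the threshold (median 0.01). Without siNC replicate 3 the list had 11 higher and 3 lower, with the filter at 5 FPKM 12 higher and 3 lower, and with array weights 17 higher and 8 lower. RAB5B, an early endosome RAB, rose from 27.8 to 35.2 FPKM (limma adjusted p = 0.000109), RAB8A, a RAB of exocytic vesicles, from 13.6 to 16.6 FPKM (limma adjusted p = 0.000428) and RAB7A, the late endosome RAB, from 172.7 to 200.7 FPKM (limma adjusted p = 0.000708). RAB8B, the paralog of RAB8A, fell from 20.8 to 14.9 FPKM (limma adjusted p = 0.000349), RAB3D, a secretory RAB, from 5.52 to 4.36 FPKM (limma adjusted p = 0.00245) and RAB26 from 5.87 to 4.91 FPKM (limma adjusted p = 0.00491). Synaptotagmins and their relatives were mostly under the filter: 3 of 22 were tested, and SYT11 fell from 12.4 to 8.91 FPKM (limma adjusted p = 7.12e-05) as the 1 lower of the list, which had 2 lower under quantile normalization and with no filter. SYTL5 stood above each of the tested RAB and synaptotagmin genes of these lists in the size of its log2 difference. Their differences ran from -0.45 for RAB8B to 0.36 for RAB1A. Genes under the filter are not in this range. One of them, RAB39A, went from 0.075 to 0.257 FPKM, a ratio of 3.42 at a low level, beside 2.81 for SYTL5.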

How the data were processed

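The deposited table gives FPKM per gene and library, computed by the authors; per the submitters' processing notes the tools were STAR, Picard, featureCounts and DESeq2 (no versions or roles given) and the build was hg19. FPKM scales reads by gene length and library size. Per the labels' protocols the libraries came from a stranded poly(A) kit (100 ng RNA, 12 PCR cycles, single reads of 50 bases). Genes averaging 1 FPKM or more were tested, PPARGC1A regardless, on log2(FPKM + 1) with limma 3.58.1 in R 4.3.3 (trend, two-sided, Benjamini-Hochberg, threshold 0.05), after a test on simulated data. A difference on this scale understates the change of low genes. Read numbers used exon lengths from GENCODE release 29 (GRCh38, another build than the table), and 91.7 to 92.2% of values up to 20 reads came out whole within 0.1 read. The depth of each library was chosen to make this share largest, so the share is no separate check of the read numbers. Sampling of reads is one part of the spread between libraries.

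The set and the gene lists were chosen with earlier results of these data known. Named genes were PPARGC1A, MITF, the 9 genes, up to 2 genes per list and direction with the smallest adjusted p (3 for RAB genes) and the 3 most like SYTL5, and 1 result that this rule takes is not reported here. Neighbours on the chromosome, the marker genes, RAB27B, SYTL1, SYTL3, HPS4, RAB1A, RAB39A and RAB17 were named after their values were seen. Alternatives were another pseudocount, filters, scalings, limma settings, a replicate block and leaving out each library.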

Additional observations from a re-analysis of the deposited data

How the results depend on the processing

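In the 14 alternative settings, the count of genes past the threshold ranged from 4126 (mean of at least 5 FPKM, 7272 genes tested) to 6379 (limma with array weights), beside 5782, and 4 genes of the set were past it in each. Leaving out 1 library gave 4646 to 5366 genes past the threshold, and a PPARGC1A difference of -0.52 to -0.48. The share of higher among called genes was 53.2%, 61.1% with the filter of 5 and 49.6% with median-of-ratios scaling. Of 108 values of the 8 tested genes under these settings, 106 kept their direction and side of the threshold, and the exceptions were MLPH at 0.02 under quantile normalization and, when 1 library was left out, between -0.06 and 0.02 (0.02 without siNC replicate 2), the cause of which was not tested. SYTL4 could be fitted only with no filter. The E-box count of the promoters went from 1 to 0 with the 7-letter words TCATGTG and TCACGTG. Correlations of deviations between libraries of the same replicate number were 0.0766, 0.261 and -0.0575, and those of unlike numbers ran from -0.331 to 0.254. With 3 libraries a group these values cannot settle whether the samples were paired. With the replicate block 6079 genes, 4 of them in the set, passed, with PPARGC1A at -0.51. Among the 9 genes the fewest reads lay behind SYTL4 (153 to 180 per library), MREG (207 to 286) and MLPH (269 to 331), and PPARGC1A had 97 to 290.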
